A study of Mus musculus with 54 samples.

Results

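The genes Pop4, Fxyd5, Lgi4 and Kirrel2 lie within one stretch of mouse chromosome 7, and their RNA levels were followed mouse by mouse through 3 brain regions. They were chosen by their difference between Mbd5+/GT and WT mice in these same libraries, combined over the regions, and by their position between 30 and 38 Mb (genes that start within megabases 30 to 38, which takes in Pop4 just past the 38 Mb mark). They are 4 of 47069 genes in the count table and 4 of the 341 that start in that stretch. Their genotype differences are therefore given as a description with no test. Tests were kept to differences between regions, litters and individual mice within a genotype, which are other contrasts than the one that chose the genes. The litters are not balanced for genotype, so a litter difference can enter the genotype difference. The litter and mouse tests are therefore not fully free of the choice.

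The 54 RNA-seq libraries came from 18 mice aged 8 weeks, each of which gave its cerebellum, its cortex and its striatum. The 10 Mbd5+/GT mice are heterozygous for B6;CB-Mbd5Gt(pU-21B)205Imeg, a gene trap in the second intron of Mbd5 on chromosome 2 that derives from the embryonic stem cell line Ayu21-B205 and leaves a hypomorphic allele. The trap is present in every cell of the animal and comes from 1 stem cell line. The 8 WT mice are littermates, and both genotypes are on a C57BL/6 background. Litter 1 was made up of 6 females (3 Mbd5+/GT, 3 WT) and litter 2 of 5 males (4 Mbd5+/GT, 1 WT), so litter and sex cannot be told apart between them. Litter 3 was made up of 7 mice (3 Mbd5+/GT, 4 WT) and had both sexes. Mice are named here as in the labels, M751 to M768. The striatum libraries of M751 and M752, both WT males of litter 3, carry "rep" in their labels, read here as repeated libraries.

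The proteins of these genes work in different processes. Pop4 is a protein subunit of RNase P, which trims the leader of precursor transfer RNAs, and of the related ribonucleoprotein RNase MRP, which acts in ribosomal RNA maturation. Fxyd5, also called dysadherin, is a small membrane protein of the FXYD family that binds the sodium pump (Na,K-ATPase) and affects cell adhesion. Lgi4 is a secreted protein of the LGI family that signals through ADAM22 and is needed for myelin formation in peripheral nerve, and Kirrel2 (Neph3) is an immunoglobulin-type adhesion molecule related to nephrin.

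By GRCm38 coordinates, Kirrel2 (ENSMUSG00000036915) is at chr7:30447534-30457690 on the minus strand. Fxyd5 (ENSMUSG00000009687) is at chr7:31032722-31042481 on the minus strand and holds the microRNA gene Mir7050, which shares 60 exonic bases with it. Lgi4 (ENSMUSG00000036560) is at chr7:31059342-31070935 on the plus strand, and 2059 of its 4584 exonic bases are shared with the antisense gene Fxyd3. Pop4 (ENSMUSG00000030423) is at chr7:38261996-38271423 on the minus strand and shares 12 exonic bases with the antisense gene Gm44767. The strand setting of the counting is not given in the sources used here, so reads from the shared bases cannot be assigned with certainty, which touches Lgi4 most. Fxyd3 itself was low, at 0.192 to 0.315 in the region means, in counts scaled to library size (CPM), against 46.7 to 95.5 CPM for Lgi4. This does not show how reads from the shared bases were counted, so the Lgi4 counts may be partial.

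Promoter sequence of 3 of the 4 genes was found in a RefSeq table of GRCm38.p6 that covers 250 bases before and 50 after each start. The letters just upstream of the annotated transcripts are shown for Pop4 (175 bases, 7 CpGs) and Kirrel2 (75 bases, 2 CpGs). CpG dinucleotides, the sites of DNA methylation, are in capitals. The stretches differ in length and hold part of the window, so the genes are compared by the full window below. Both are read on the minus strand, Pop4 at chr7:38271424-38271598 and Kirrel2 at chr7:30457691-30457765.
Pop4: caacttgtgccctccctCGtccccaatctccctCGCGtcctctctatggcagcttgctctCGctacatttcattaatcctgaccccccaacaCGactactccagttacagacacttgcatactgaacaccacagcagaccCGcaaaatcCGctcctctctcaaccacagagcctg
Kirrel2: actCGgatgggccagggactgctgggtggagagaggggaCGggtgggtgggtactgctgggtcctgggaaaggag
The full window of 300 bases held 19 CpGs for Pop4, and 28.1% of all 32851 promoters held as many. It held 8 for Kirrel2 (48.6% of promoters) and 6 for Fxyd5 (56.4%), where the median promoter had 7.0. On either strand, TGACGTCA, the cyclic AMP response element, was present in the Pop4 window only among these 3, outside the printed stretch, and in 1.79% of all promoters. GGGCGG, the GC box, was present in the Kirrel2 window only among these 3, also outside the printed stretch, and in 35.7% of all promoters. These matches describe the letters and not binding.

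The gene counts of a library summed to 25295973 at the lowest, 29073866 in the median and 49027399 at the highest. Pop4 had 350 to 1346 counts in a library, Fxyd5 126 to 1389, Lgi4 1102 to 4698 and Kirrel2 56 to 530. Levels are CPM with library sizes scaled by TMM. In bulk tissue, fewer cells of a type and less RNA per cell cannot be told apart. The labelled region was checked with 8 marker genes for each region. Their summed level was far below the median of the region in 4 libraries, the cerebellum libraries of M755 (Mbd5+/GT, 3.11% of the median) and M754 (WT, 31.1%), and the striatum libraries of WT M754 (7.5%) and M761 (19.8%). The next lowest library held 37.3%. The cerebellum libraries of M755 and M754 also had the highest summed level of 8 oligodendrocyte markers in the cerebellum of their genotype, 32300 and 19500 CPM, where the medians were 7020 CPM in Mbd5+/GT and 6410 CPM in WT mice. These 4 libraries were kept, and results that rest on them are given with and without them. The cortex markers were also present in striatum libraries, at a sum of 365 to 1230 CPM in WT and 37.5 to 1700 CPM in Mbd5+/GT mice. In cortex their sums were 1040 to 1960 CPM and 916 to 1950 CPM. The striatum markers were likewise present in cortex, as given below. The part of this in the comparisons of striatum with cortex was not tested.

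Mbd5, the trapped gene, was lower in Mbd5+/GT than in WT mice in each region. Its mean was 42.3 ± 10.9 CPM (SD, n = 10) against 55.0 ± 10.8 (n = 8) in cerebellum, 46.0 ± 4.44 against 65.9 ± 9.56 in cortex and 36.1 ± 5.01 against 48.1 ± 8.49 in striatum, which is 76.9%, 69.9% and 75.0% of the WT mean. The groups overlapped in all 3 regions.

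The members differed in level and in where they were high. Per kilobase of exon, Lgi4 was the highest of them in each region, at 20.8 ± 3.66 CPM per kb in cerebellum, 10.2 ± 1.06 in cortex and 10.8 ± 0.976 in striatum (SD, n = 18). Pop4 was next at 9.58 ± 2.31, 7.1 ± 1.47 and 9.02 ± 1.36 CPM per kb in the same order of regions. Fxyd5 had 1.72 ± 0.369, 5.65 ± 1.2 and 5.97 ± 2.17 CPM per kb, and Kirrel2 was the lowest with 0.762 ± 0.204, 2.61 ± 0.562 and 2.95 ± 0.812. In cortex the ranges of 1 SD around Pop4 and Fxyd5 overlapped. In striatum those around Lgi4 and Pop4 overlapped, as did those around Pop4 and Fxyd5. The order of these pairs there was within the spread between mice.

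The regions split the genes into 3 patterns. Fxyd5 and Kirrel2 were lower in cerebellum than in the forebrain regions, Lgi4 was higher in cerebellum, and Pop4 was lowest in cortex. The regions were compared by edgeR's quasi-likelihood test over all 54 libraries with genotype as a term, and p-values were adjusted by Benjamini-Hochberg over all 20477 genes tested. Of those genes 69.1% passed the adjusted p of 0.05 between cortex and cerebellum, 75.3% between striatum and cerebellum and 58.8% between striatum and cortex, so passing is the usual outcome and the sizes are what describe a gene.

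Fxyd5 had a mean of 7.22 ± 1.54 CPM in cerebellum (SD, n = 18, lowest 4.46, median 6.77, highest 10.4), 23.7 ± 5.05 in cortex (15.3, 24.5, 31.4) and 25 ± 9.08 in striatum (12.3, 21.6, 44.6). All 18 mice had more in cortex and in striatum than in cerebellum, and neither range overlapped with that of cerebellum. The log2 difference was 1.71 ± 0.124 (SE) for cortex minus cerebellum (3.27-fold, adjusted p = 4.6e-18, edgeR) and 1.79 ± 0.124 for striatum minus cerebellum (3.47-fold, adjusted p = 6.5e-19, edgeR). Striatum and cortex did not differ beyond the spread, with a log2 difference of 0.09 and a 95% interval from -0.14 to 0.32.

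Kirrel2 had a mean of 3.0 ± 0.803 CPM in cerebellum (SD, n = 18, lowest 1.96, median 2.89, highest 4.88), 10.3 ± 2.21 in cortex (6.54, 10.4, 14.3) and 11.6 ± 3.2 in striatum (6.89, 11.6, 18.7). As for Fxyd5, all 18 mice were lower in cerebellum and its range lay apart from the others. The log2 difference from cerebellum was 1.79 ± 0.115 (SE) in cortex (3.45-fold, adjusted p = 3.1e-20, edgeR) and 1.96 ± 0.115 in striatum (3.9-fold, adjusted p = 7e-22, edgeR). Between striatum and cortex it was 0.18, with an interval from -0.04 to 0.4 and an adjusted p of 0.16 (edgeR). Without the 4 libraries low in the markers of their region it was 0.23 with an adjusted p of 0.042, which is past the threshold.

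Lgi4 had a mean of 95.5 ± 16.8 CPM in cerebellum (SD, n = 18, lowest 58.1, median 100, highest 120.0), 46.7 ± 4.85 in cortex (35.9, 47.3, 53.4) and 49.4 ± 4.47 in striatum (42.0, 48.8, 58.1). All 18 mice were higher in cerebellum than in either other region. The lowest cerebellum values belonged to the libraries of M754 (58.1 CPM) and M755 (60.2 CPM), which were low in cerebellum markers, and without them the lowest was 72.9 CPM. The log2 difference from cerebellum was -1.03 ± 0.0633 (SE) in cortex (2.05-fold, adjusted p = 4.2e-21, edgeR) and -0.95 ± 0.0631 in striatum (1.93-fold, adjusted p = 1.2e-19, edgeR). Between striatum and cortex it was 0.08, with an interval from -0.04 to 0.2.

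Pop4 had a mean of 27.3 ± 6.59 CPM in cerebellum (SD, n = 18, lowest 18.6, median 26.4, highest 41.3), 20.2 ± 4.17 in cortex (13.2, 19.7, 27.1) and 25.7 ± 3.87 in striatum (19.3, 25.4, 33.9). The ranges of the regions overlapped, but within mice the order was steady: all 18 had more in striatum than in cortex and 17 had more in cerebellum than in cortex. The log2 difference was -0.43 ± 0.0845 (SE) for cortex minus cerebellum (adjusted p = 1.1e-05, edgeR) and 0.35 ± 0.0845 for striatum minus cortex (adjusted p = 0.00039, edgeR). Cerebellum and striatum did not differ beyond the spread, with 11 mice higher in one and 7 in the other and an interval of the log2 difference from -0.25 to 0.09. When the mouse entered this fit as a replicate block, the counts of members past the threshold were the same, 4 between cortex and cerebellum, 3 between striatum and cerebellum and 1 between striatum and cortex.

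**Figure D1:**
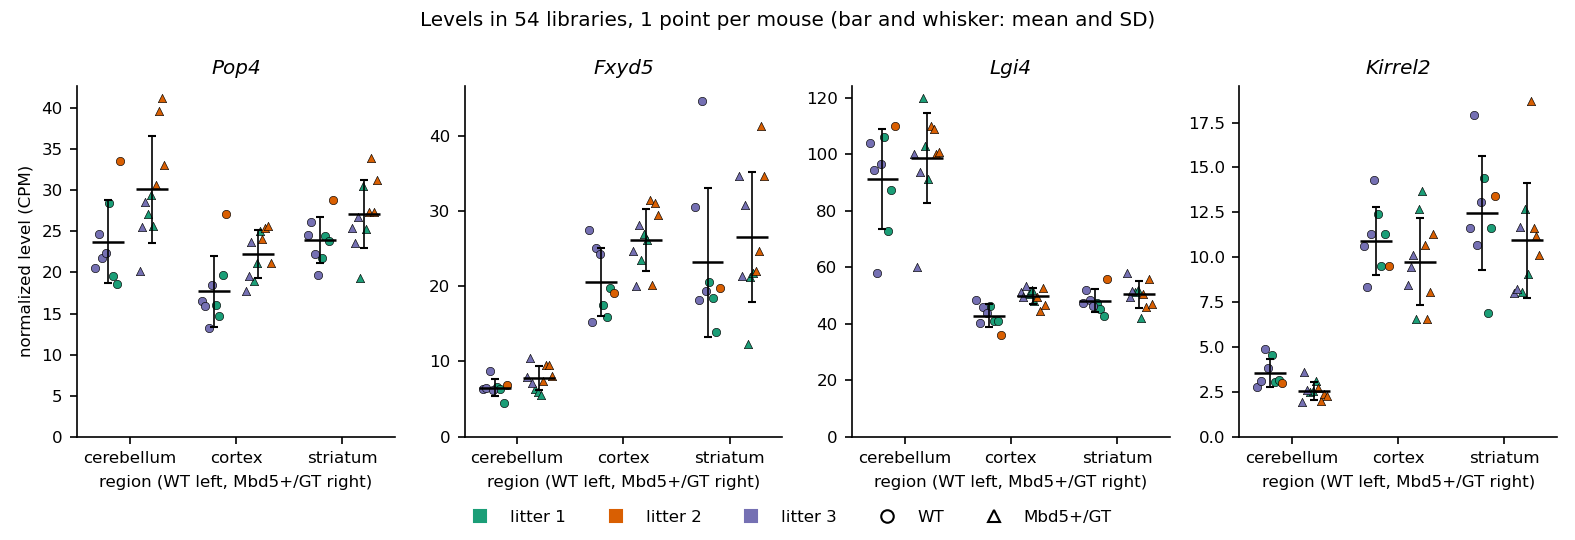
Normalized level (CPM) of the 4 genes in the 54 libraries, with 1 panel per gene and, in each region, WT mice as circles on the left and Mbd5+/GT mice as triangles on the right. Color gives the litter, and the bar and whiskers give the mean and SD of 8 or 10 mice. Fxyd5 and Kirrel2 are low and Lgi4 is high in cerebellum in all 18 mice, and the Pop4 points of litter 2 lie high in their groups.

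The genotype difference chose the genes, and none of them had groups that lay apart in any region. For Pop4 the WT cerebellum held 18.6 to 33.6 CPM (median 22.1, n = 8) and the Mbd5+/GT cerebellum 20.2 to 41.3 (median 29.0, n = 10), and 2 of 10 Mbd5+/GT mice were above every WT mouse. In cortex WT mice had 13.2 to 27.1 (median 16.3) and Mbd5+/GT mice 17.7 to 25.6 (median 22.4), and the highest value was that of a WT mouse, M765 of litter 2. In striatum the ranges were 19.7 to 28.8 (median 24.1) and 19.3 to 33.9 (median 27.1). The fitted log2 fold change, Mbd5+/GT minus WT, with surrogate variables as terms, was 0.30 ± 0.0906 (SE) in cerebellum, 0.34 ± 0.0986 in cortex and 0.20 ± 0.0826 in striatum.

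For Fxyd5 the WT mice had 4.46 to 8.78 CPM in cerebellum (median 6.41), 15.3 to 27.5 in cortex (median 19.5) and 13.9 to 44.6 in striatum (median 19.6). The Mbd5+/GT mice had 5.6 to 10.4 (median 7.66), 20.0 to 31.4 (median 26.6) and 12.3 to 41.3 (median 23.4). In striatum both the highest value, 44.6 CPM in WT M754, and the lowest, 12.3 CPM in Mbd5+/GT M758, went against the direction of the means, and the first of these libraries was low in striatum markers. The log2 fold change was 0.22 ± 0.094 in cerebellum, 0.31 ± 0.0732 in cortex and 0.29 ± 0.126 in striatum.

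For Lgi4 the WT mice had 58.1 to 110.0 CPM in cerebellum (median 95.6), 35.9 to 48.5 in cortex (median 42.4) and 42.6 to 55.9 in striatum (median 47.4). The Mbd5+/GT mice had 60.2 to 120.0 (median 101.0), 44.5 to 53.4 (median 50) and 42.0 to 58.1 (median 50.9). The cortex groups came closest to lying apart, with 7 of 10 Mbd5+/GT mice above every WT mouse. The log2 fold change was 0.08 ± 0.0476 in cerebellum, 0.21 ± 0.0389 in cortex and 0.05 ± 0.064 in striatum.

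Kirrel2 was the gene with the opposite sign. Its WT mice had 2.77 to 4.88 CPM in cerebellum (median 3.16), 8.32 to 14.3 in cortex (median 10.9) and 6.89 to 17.9 in striatum (median 12.4), and its Mbd5+/GT mice 1.96 to 3.61 (median 2.51), 6.54 to 13.7 (median 9.77) and 8.02 to 18.7 (median 10.7). In cerebellum 8 of 10 Mbd5+/GT mice were below every WT mouse, with a log2 fold change of -0.47 ± 0.111. It was -0.20 ± 0.102 in cortex and -0.28 ± 0.12 in striatum.

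At an unadjusted p under 0.05, which defines a nominally differentially expressed gene (nDEG), Pop4, Fxyd5 and Kirrel2 were nDEGs in cerebellum, where 2.75% of all genes tested were. Pop4, Fxyd5 and Lgi4 were nDEGs in cortex, against 8.47% of all genes, and Pop4, Fxyd5 and Kirrel2 in striatum, against 7.44%. These counts restate the choice of the genes, and they depend on the model. The other models use the same contrast and mice, so their counts are no support for the genes either. With litter and sex as terms in place of the surrogate variables, Kirrel2 alone was an nDEG in cerebellum (0.53% of all genes). In that fit Pop4, Fxyd5 and Lgi4 were nDEGs in cortex (4.11%) and no member was in striatum (9.22%). With neither, Pop4 and Kirrel2 were nDEGs in cerebellum (0.46% of all genes), the same 3 genes in cortex (3.43%) and no member in striatum (5.44%). Without the 4 libraries low in region markers the log2 fold changes of Pop4, Fxyd5, Lgi4 and Kirrel2 were 0.30, 0.23, 0.07 and -0.46 in cerebellum and 0.21, 0.32, 0.06 and -0.27 in striatum.

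Within litters the Kirrel2 difference, taken as the difference of mean log2 CPM, was below 0 in all 9 combinations of region and litter, from -0.51 to -0.07. Fxyd5 was above 0 in all 9, from 0.04 to 0.58. Pop4 was above 0 in 8 and at -0.17 in the cortex of litter 2, and Lgi4 was above 0 in 6 and below 0 in the cerebellum of litters 2 and 3 (-0.06 in each) and the striatum of litter 2 (-0.17). Litter 2 has a single WT mouse, so its differences rest on M765. The 9 combinations are parts of the difference that chose the genes, and the regions share their mice. A shared sign therefore follows in part from the choice, and the 9 are not separate repeats. In the fit with litter and sex as terms, the log2 fold change of Pop4 was 0.18 ± 0.103 in cerebellum, 0.24 ± 0.103 in cortex and 0.10 ± 0.0896 in striatum. That of Fxyd5 was 0.18 ± 0.121, 0.34 ± 0.131 and 0.14 ± 0.216, and that of Kirrel2 was -0.46 ± 0.126, -0.14 ± 0.148 and -0.29 ± 0.18.

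**Figure D2:**
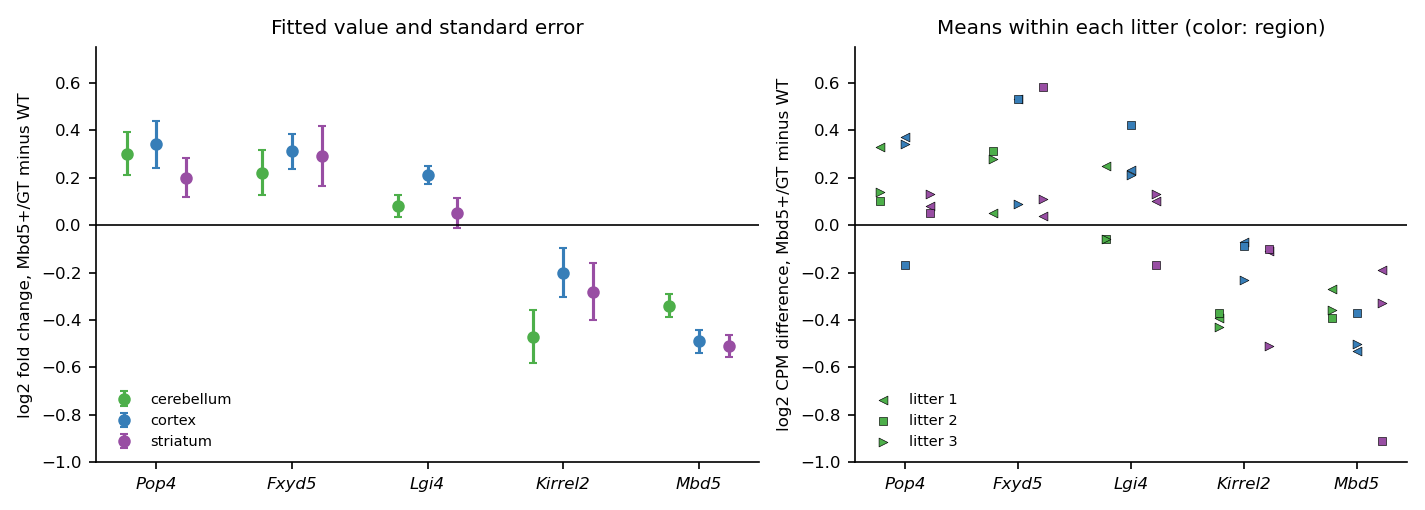
Genotype difference (log2, Mbd5+/GT minus WT) of the 4 genes and of Mbd5. The left panel gives the fitted value with its SE by region in color, and the right panel gives the difference of mean log2 CPM within each litter by marker shape. Kirrel2 and Mbd5 lie below 0 in every region and litter, and Pop4 in the cortex of litter 2 lies at -0.17.

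Other differences between the groups moved in the cortex libraries. The summed level of 8 striatum markers ranged from 179 to 2010 CPM in WT cortex (median 1250) and from 262 to 1380 CPM in Mbd5+/GT cortex (median 563), with no marker at 0. Over the 18 mice, after removal of the genotype means, this level had a Pearson's r of -0.68 with Fxyd5 and with Lgi4 in cortex, 0.41 with Pop4 and -0.12 with Kirrel2. Of 10 choroid plexus markers 9 were higher in Mbd5+/GT cortex at an unadjusted p under 0.05, with summed levels of 242 to 554 CPM in WT and 203 to 2220 CPM in Mbd5+/GT mice and no marker at 0. Their r with the members in cortex was between -0.28 and 0.09. Of 10 motile cilium genes 9 were likewise higher in cortex, and their r with Kirrel2 was -0.74. Of all genes 8.47% were under this p in cortex, and no gene of these 2 lists passed there after adjustment (edgeR). The cortex markers had an r of 0.75 with Fxyd5 and 0.65 with Kirrel2 in cortex, with summed levels of 1040 to 1960 CPM in WT and 916 to 1950 CPM in Mbd5+/GT mice. The part of these tissue differences in the genotype values was not tested.

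In cerebellum Lgi4 had an r of 0.89 with the cortex markers and of -0.78 with the oligodendrocyte markers, which were 0.85 and -0.06 without the libraries of M754 and M755. Pop4 had an r of -0.73 with the motile cilium genes there and of -0.63 with the choroid plexus markers. Without the libraries of M754 and M755, Lgi4 had 0.87 with the striatum markers there, -0.75 with the choroid plexus markers and -0.71 with the motile cilium genes. The endothelial markers had an r with Kirrel2 of 0.64 in cerebellum (0.27 without the libraries of M754 and M755), 0.63 in cortex and 0.63 in striatum, and of 0.68 with Lgi4 in cortex. Their median log2 fold change was -0.12, -0.09 and -0.08 in cerebellum, cortex and striatum, below 0 as that of Kirrel2 was. The striatum markers had an r of 0.68 with Kirrel2 in striatum, where the cerebellum markers had -0.71 with Fxyd5 and -0.70 with Lgi4. The r values with markers given here and for cortex were named after they were seen, from all lists, regions and members. They are not particular to the pairs named. The part of these levels in the values of the members was not tested.

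For the other counts, no endothelial, meningeal, erythrocyte or oligodendrocyte marker was an nDEG in any region. Of all genes 2.75%, 8.47% and 7.44% were nDEGs in cerebellum, cortex and striatum. Of 8 markers each, 1 microglia marker was higher and 2 were lower in striatum, 1 astrocyte marker was higher in each region, 1 cerebellum marker was lower in cortex, 2 striatum markers were lower in cortex, and 1 cortex marker was lower in cerebellum and 1 higher in cortex.

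Whether a mouse kept the same deviation in all 3 of its regions was tested as a mouse effect. This was an F test of the differences between mice within a genotype over the 54 libraries, set apart from the genotype contrast. A litter difference can enter both, since the litters are not balanced for genotype, so the test is not fully free of the choice. Of 20477 genes 393 passed at an adjusted p under 0.05, which is 1.92%, and 13.4% passed without adjustment. Pop4 passed (F = 3.99, adjusted p = 0.022, edgeR), at position 261 in the order of p. Fxyd5 did not pass after adjustment (F = 3.01, unadjusted p = 0.003, adjusted p = 0.098, edgeR), nor did Kirrel2 (F = 1.8, adjusted p = 0.43) or Lgi4 (F = 1.03, adjusted p = 0.8). Mbd5 had an F of 0.64.

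The mice of litter 2, of which 4 of 5 are Mbd5+/GT, stood highest for Pop4. They had a mean deviation over the regions, in log2 CPM from the mean of their genotype and region, of 0.07 to 0.48, all above 0, against -0.27 to 0.04 in litter 1 and -0.31 to 0.03 in litter 3. WT M765 had the largest, with 33.6 CPM in cerebellum, 27.1 in cortex and 28.8 in striatum, the highest WT value in each region. M766 (39.7, 25.4 and 33.9 CPM) and M767 (41.3, 25.6 and 27.4 CPM) were high among the Mbd5+/GT mice. Without litter 2 the Pop4 mouse effect had an adjusted p of 1.0 (unadjusted 0.47), and without litter 3 it had 0.21. It also missed the threshold without M765 (adjusted p = 0.28), M766 (0.12) or M758 (0.06), without the cerebellum (0.45), cortex (0.55) or striatum libraries (0.31), and with no filter on low counts (0.054). It stayed past it without the 4 libraries low in region markers (adjusted p = 0.023) and in the likelihood ratio test of DESeq2 (adjusted p = 7e-05), in which Fxyd5 passed as well (0.0055).

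**Figure D3:**
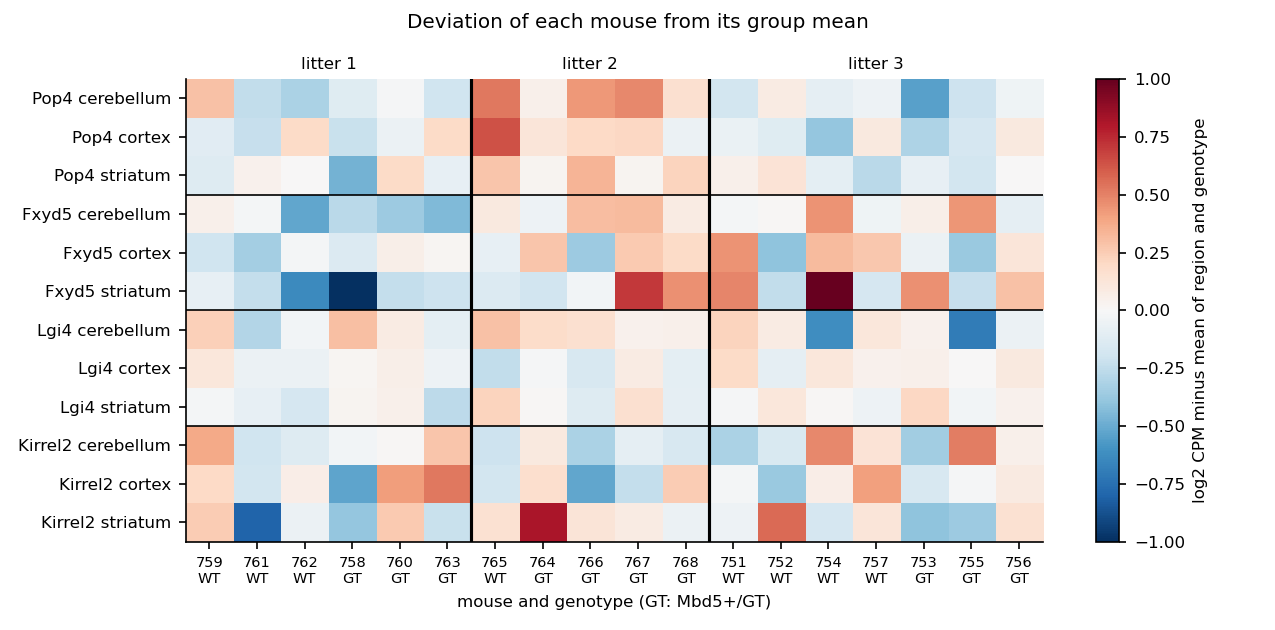
Deviation of each library from the mean of its region and genotype (log2 CPM, color), with the 4 genes by region in rows and the 18 mice in columns, ordered by litter. The Pop4 rows are red in most columns of litter 2, including WT M765, and the Fxyd5 rows are mostly blue in litter 1.

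The litters were then compared within each region by an F test with genotype as a term. No member passed after adjustment in any region, with adjusted p of 0.36 to 0.74 (edgeR). Over all genes 0 passed in cerebellum (0.0%) and 0 in cortex (0.0%) and 3 in striatum (0.0162%), while the likelihood ratio test of DESeq2 called 14, 27 and 199 genes and no member. Without adjustment Pop4 was under 0.05 in all 3 regions, with p = 0.0015 in cerebellum, 0.016 in cortex and 0.043 in striatum (edgeR), where 13.3%, 7.8% and 12.2% of all genes were. The striatum value was not under 0.05 with sex as a covariate (unadjusted p = 0.41), with no filter (0.055) or without the libraries low in region markers (0.067), while those of cerebellum and cortex with sex as a covariate were 0.0061 and 0.031 (edgeR). The Pop4 level was 35.7 ± 4.6 CPM (SD, n = 5) in the cerebellum of litter 2, against 24.8 ± 4.62 in litter 1 (n = 6) and 23.4 ± 3.02 in litter 3 (n = 7), and the range of litter 2 (30.6 to 41.3) lay above those of the others, which ended at 29.4 and 28.6. In cortex the 3 litters had 24.6 ± 2.23, 19.3 ± 3.73 and 17.9 ± 3.29 CPM in the same order, and in striatum 29.7 ± 2.8, 24.2 ± 3.8 and 24.1 ± 2.47.

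Fxyd5 was lowest in litter 1, by a margin that also missed the adjusted threshold. Its mean was 5.88 ± 0.788 CPM in the cerebellum of litter 1 against 8.27 ± 1.21 in litter 2 and 7.62 ± 1.53 in litter 3 (unadjusted p = 0.018, edgeR). In striatum it was 18 ± 4.02 against 28.5 ± 9.14 and 28.5 ± 9.56 (unadjusted p = 0.022, and 0.062 with sex as a covariate, edgeR), and in cortex 21.6 ± 4.6 against 26.2 ± 6.07 and 23.6 ± 4.51 (unadjusted p = 0.38, edgeR). All 6 mice of litter 1 had a mean Fxyd5 deviation below 0, from -0.48 to -0.08. Lgi4 and Kirrel2 had unadjusted p of 0.099 to 0.5 in the litter test in all regions.

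The deviations of one gene were compared between regions over the 18 mice, as Pearson's r. For Pop4 r was 0.59 between cerebellum and cortex, 0.49 between cerebellum and striatum and 0.45 between cortex and striatum, where the medians over all genes were 0.08, 0.01 and 0.06. Only 2.07%, 4.75% and 8.0% of genes had an r as high. For Fxyd5 it was -0.06, 0.60 and 0.53 in the same order, and for Kirrel2 0.49, 0.04 and 0.16. Lgi4 had -0.14, 0.22 and 0.07. Without the 4 libraries low in region markers the Kirrel2 value for cerebellum and cortex was 0.62 and the Pop4 values were 0.60, 0.48 and 0.47. Without the 2 mice farthest from the median the Pop4 values were lower, at 0.33, 0.42 and 0.31. Each of these points shares its animal and litter, and no p is given.

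The pairs of genes were compared in the same way. With each mouse's deviation averaged over its regions, r lay between -0.02 (Lgi4 and Kirrel2) and 0.23 (Pop4 and Lgi4) for the 6 pairs, and Spearman's rho between -0.14 and 0.19. Single pairs moved with the mice that entered: r of Fxyd5 and Lgi4 went from 0.01 to 0.39 without the 4 libraries low in region markers, and that of Pop4 and Kirrel2 from 0.14 to 0.48 without the 2 mice farthest from the median of Pop4. Within a region the pairs ranged from -0.56 (Lgi4 and Kirrel2 in cerebellum) to 0.51 (Fxyd5 and Lgi4 in cortex), and these were values within 1 library, which share its composition. Between different regions of the same mouse, where no library is shared, the mean r of the 6 pairs lay between -0.02 and 0.10. The value of -0.56 rested on the cerebellum libraries of M754 and M755, since it was 0.02 without the libraries low in region markers. That of Fxyd5 and Lgi4 in cerebellum went from -0.40 to 0.23, and that of Pop4 and Fxyd5 in cerebellum from 0.37 to 0.61. The r of -0.54 between Pop4 and Lgi4 in cortex was -0.16 without the 2 mice farthest from the median of Pop4.

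**Figure D4:**
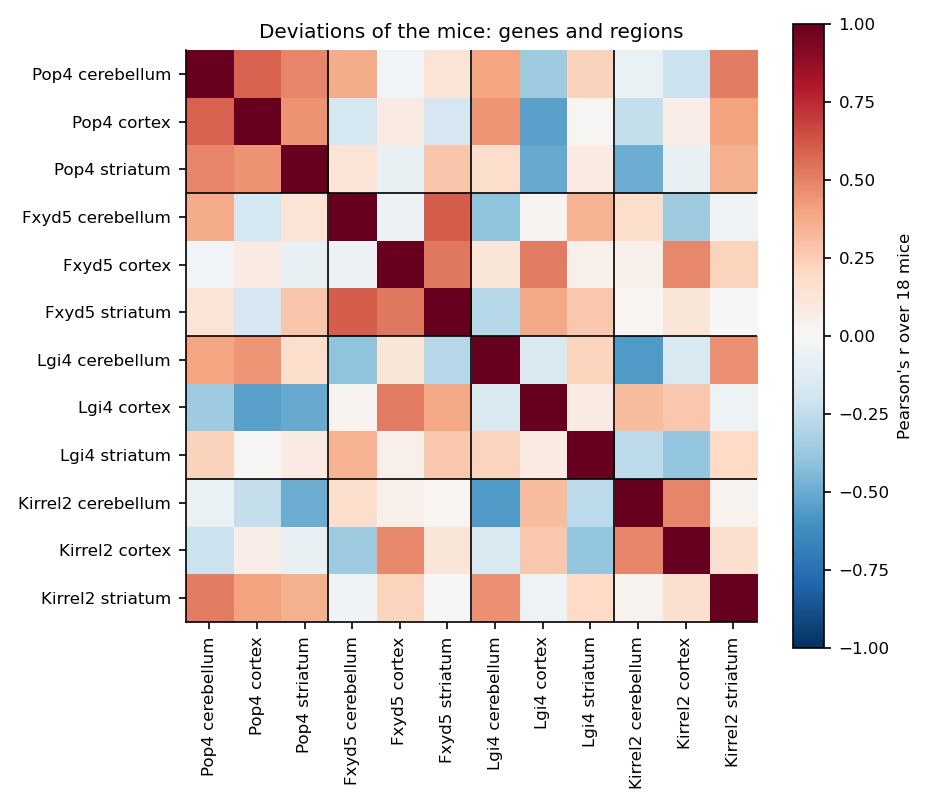
Pearson's r over 18 mice between the deviations (log2 CPM from the mean of region and genotype) of every gene and region, 12 rows by 12 columns. The blocks on the diagonal compare 1 gene between regions, where Pop4 has 0.45 to 0.59, and the blocks off the diagonal compare different genes, where the values scatter on both sides of 0.

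The genes next to the members were compared with them, and so was the rest of the stretch. Over the deviations of the 54 libraries Fxyd5 had an r of 0.69 with Fxyd7, the brain FXYD protein whose gene lies just beyond it at chr7:31042513-31051467, and Kirrel2 had 0.62 with Nphs1, the nephrin gene that faces it head to head at chr7:30458315-30487223. Pop4 had 0.49 with Plekhf1, which encodes an endosomal PH and FYVE domain protein, at chr7:38216972-38228016, and Lgi4 0.39 with Fxyd1 (phospholemman). More distant genes of the stretch had higher values with these, for Pop4 Pdcd5 (0.67), Polr2i (0.66) and Psenen (0.64), and for Lgi4 U2af1l4 (0.63) and Nfkbid (0.62). These were named after their values were seen. The median absolute r with all genes was 0.21 for Fxyd5, 0.16 for Kirrel2 and 0.24 for Pop4 and Lgi4. The other direct neighbours had lower values or, as Aplp1 with Kirrel2 (0.44), values that dropped without the 4 libraries (0.30). Among the members themselves r over the 54 libraries was -0.13 to 0.24.

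The genes with the largest absolute r were taken from the whole genome. For Pop4 they were Dnajc9, a histone co-chaperone, Pak1ip1, a ribosome assembly factor, and Supt4a, a transcription elongation factor, each with r = 0.75. For Fxyd5 they were Epop (0.77), 1110008P14Rik (0.77) and Pdlim7 (0.76), and for Kirrel2 Ttyh1 (0.73), Snn (0.72) and Adamtsl5 (0.72), of which Ttyh1 is on chromosome 7 far from the stretch, at chr7:4119408-4136708. For Lgi4 they were Dcun1d4 (-0.85), Rab27b (-0.84) and Mc4r (-0.83), which were -0.67, -0.66 and -0.65 without the 4 libraries low in region markers. Of the 100 genes with the largest absolute r, those that start in the stretch numbered 0 for Pop4 and Lgi4 and 1 for Fxyd5 and Kirrel2, where the stretch holds 0.557% of the genes tested. These correlations run over libraries that share mice and litters.

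The neighbours in the stretch were compared for genotype as well, since they were not chosen. Of the 94 neighbours tested in cerebellum 4 (4.26%) were nDEGs, 3 with a positive and 1 with a negative log2 fold change. In cortex it was 11 of 100 (11.0%), 7 positive and 4 negative, and in striatum 6 of 98 (6.12%), 2 positive and 4 negative. These shares stand beside the 2.75%, 8.47% and 7.44% of all genes given above. No neighbour passed after adjustment, and none was an nDEG with the same sign in all 3 regions. The median log2 fold change of the neighbours was 0.019, 0.018 and -0.033 in cerebellum, cortex and striatum, where that of all genes was -0.003, -0.004 and -0.01. Next to the members, Fxyd7 and Fxyd1 were nDEGs in cortex, with log2 fold changes of 0.20 ± 0.0462 and 0.23 ± 0.0585 (SE), as was Fam187b (0.77), whose mean there was 0.16 CPM. Nphs1 had -0.26 ± 0.225, -0.27 ± 0.15 and -0.18 ± 0.158 in the 3 regions and was no nDEG. Plekhf1 had -0.10, -0.01 and -0.26.

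For the mouse effect 7 of 110 neighbours were under an unadjusted p of 0.05 (6.36%, against 13.4% of all genes), and 0 passed after adjustment (edgeR). After Pop4 the lowest p in the stretch was that of Plekhf1 (F = 3.45, adjusted p = 0.051, edgeR), followed by Fxyd5 and by Ffar3, a receptor for short-chain fatty acids, which was near 0 outside striatum (F = 2.85). Ankrd27 (F = 2.85), the gastric proton pump gene Atp4a (2.65), the transcription factor gene Tshz3 (2.38), U2af1l4 (2.22), Uri1 (1.98) and the noncoding Gm35611 (1.82) completed the 10 lowest. The median F was 1.057 among the neighbours and 1.111 over all genes.

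**Figure D5:**
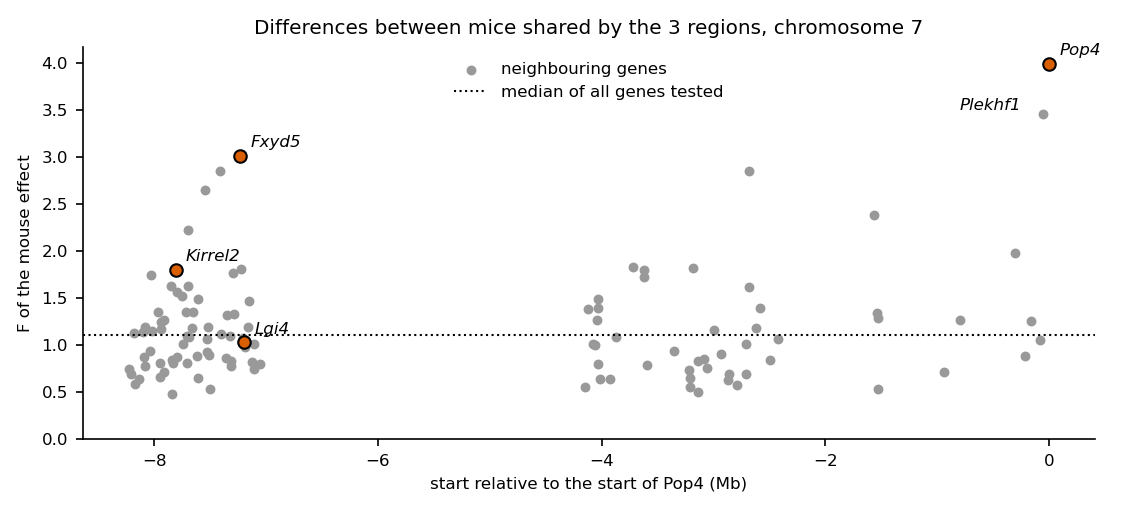
F of the mouse effect for the genes tested in the stretch, against the distance of their lowest coordinate from that of Pop4 in Mb. Members are orange, neighbours gray, and the dotted line is the median over all genes, 1.111. Pop4 (3.99) and the adjacent Plekhf1 (3.45) are the 2 highest points, and Lgi4 (1.03) lies near the line.

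The partners of each protein were taken from lists of family members. Of the 12 other RNase P and RNase MRP components tested in each region, 2 were nDEGs in cerebellum, none in cortex and 2 in striatum, against 2.75%, 8.47% and 7.44% of all genes, and none passed after adjustment. The same shares of all genes stand beside the counts of the 3 lists that follow. Rpp25 was at -0.36 ± 0.0863 and Rpp38 at 0.16 ± 0.0672 (log2 fold change ± SE) in cerebellum, and Pop5 was at -0.16 ± 0.0657 and Rpp21 at -0.14 ± 0.0587 in striatum. The list's median without Pop4 was 0.0, -0.01 and -0.06 in cerebellum, cortex and striatum, beside -0.003, -0.004 and -0.01 over all genes. Per kilobase the cerebellum held 19 CPM per kb of Rpp25l, 17.6 of Pop5, 14.1 of Rpp14 and 12.1 of Rpp21, all above the 9.58 of Pop4. Between cortex and cerebellum 3 of the 12 were higher in cortex and 4 lower after adjustment, where 69.1% of all genes passed in either direction. Those lower in cortex, as Pop4 was, were Rpp21 (log2 difference -0.38 ± 0.098), Rpp25l (-0.64 ± 0.116), Rpp30 (-0.66 ± 0.0669) and Rpp38 (-0.21 ± 0.076).

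Of the 11 other FXYD proteins and sodium pump subunits, Fxyd2, at a mean of 0.242 CPM, was higher (0.90 ± 0.358) and Fxyd6 lower (-0.16 ± 0.0665) as nDEGs in cerebellum, Fxyd1 and Fxyd7 were higher in cortex, and none was an nDEG in striatum. Atp1b1, a beta subunit of the pump, was no nDEG in any region and had 477 CPM per kb in cerebellum, against 1.72 for Fxyd5. The medians of the list were -0.02, -0.02 and 0.01. The region pattern of Fxyd5 was shared by its neighbour Fxyd7, which was higher in cortex (2.4 ± 0.235, log2 difference) and striatum (2.57 ± 0.236) than in cerebellum, and by Fxyd2 (2.92 ± 0.247 and 4.60 ± 0.254). Fxyd1, also adjacent, had the opposite sign (-1.20 ± 0.108 and -0.52 ± 0.107), as Lgi4 did.

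Of the 6 other LGI proteins and ADAM receptors, none was an nDEG in cerebellum. In cortex Adam11 was higher (0.12 ± 0.0453) and Lgi1 (-0.10 ± 0.0425) and Lgi2 (-0.22 ± 0.0994) were lower, and in striatum Adam22, the receptor of Lgi4, was higher (0.13 ± 0.0452). Between cortex and cerebellum Lgi3 (-0.81 ± 0.0941), Adam11 (-1.21 ± 0.103), Adam22 (-0.23 ± 0.0892) and Adam23 (-0.32 ± 0.0864) were lower in cortex, as Lgi4 was, and Lgi1 was higher (0.47 ± 0.0447). Per kilobase Lgi3 had 50.5 CPM in cerebellum and Adam11 69.4, above the 20.8 of Lgi4, whose counts may be partial for the bases shared with Fxyd3. The medians of the list's log2 fold changes were 0.0, -0.05 and 0.02.

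Among the other nephrin and Kirrel adhesion genes, 0 of 7 were nDEGs in cerebellum, 1 of 8 was lower in cortex, Kirrel3 (-0.25 ± 0.0892), and 3 of 7 were higher in striatum, Cd2ap (0.20 ± 0.0915), Magi2 (0.18 ± 0.0545) and Tjp1 (0.17 ± 0.065), which encode scaffold proteins, against 7.44% of all genes. Their medians were 0.01, -0.12 and 0.11. The paralogs Kirrel (log2 difference -0.36 ± 0.108) and Kirrel3 (-1.30 ± 0.111) were higher in cerebellum than in cortex, opposite to Kirrel2, while Nphs1 (2.15 ± 0.144) was lower in cerebellum as Kirrel2 was. Kirrel3 was the highest of the 3 Kirrel genes per kilobase in each region, with 16.3, 6.67 and 7.95 CPM per kb in cerebellum, cortex and striatum. In none of the 4 lists did a member other than Pop4 pass the mouse effect after adjustment.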

How the data were processed

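The authors aligned the reads with STAR 2.4.2 to GRCm38, after FastQC 0.10.1, counted them per Ensembl gene and deposited raw counts (whole numbers, not normalized) in 1 table of 54 libraries. The strand setting of the counting is not given in the sources used here. Groups, litters, sexes and mouse numbers came from the labels. Of the gene identifiers, 46488 matched GENCODE M21, which gave names, positions and exon lengths, and 92 spike-in rows were left out.

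The filter kept genes that exceeded 4 counts in 8 or more libraries, per region for genotype and litter and over all libraries for the rest. Counts were fitted with edgeR 4.0.16 (R 4.3.3, TMM, robust quasi-likelihood F tests, Benjamini-Hochberg over all genes tested). The genotype fits had 2, 4 and 4 surrogate variables (sva 3.50.0) in cerebellum, cortex and striatum, after the paper's methods. DESeq2 1.42.0 was an alternative. An SE is the size of the log2 value divided by the square root of F. Deviations are log2 CPM (prior count 2) minus the mean of region and genotype. The tests were run on simulated counts, which had no tissue differences between mice and larger genotype changes than the members have. Those runs do not show how the tests perform in these libraries.

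The 4 genes and the gene lists were chosen with earlier results of these data known. Genes named in the text are the members, Mbd5, their tested direct neighbours, the 10 neighbours or members with the lowest p of the mouse effect, the neighbours that were nDEGs with the same sign in all regions, the 3 genes with the largest absolute r for each member, and family genes past a threshold or among the highest levels. Lists of endothelial, microglia, astrocyte, meningeal and erythrocyte markers were measured too. The number of the mouse pairs the regions, since the 3 libraries come from 1 animal. Same-mouse deviations correlated over genes with a median r of 0.164 (cerebellum and cortex), 0.062 (cerebellum and striatum) and 0.091 (cortex and striatum), against -0.01 to -0.005 between different mice. The p-values of the litter fits measure the spread between these animals. Those of the main genotype fits measure the spread left after the surrogate variables, which come from the same libraries. The SE of every member was larger without them in each region, as for Lgi4 in cerebellum, with 0.124 against 0.0476. The main region fit had no mouse term and took the 54 libraries as separate. The mouse effect was measured against the spread between regions within a mouse. The values of 1 listed gene are not reported here.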

Additional observations from a re-analysis of the deposited data

Results flagged for a closer look

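In 3 of 30 groups of 8 or 10 libraries (4 genes and Mbd5, 3 regions, 2 genotypes), 1 library lay far from the rest by Dixon's test, which flags about 5% of groups by chance. Pop4 in WT cortex was 27.1 CPM in M765 of litter 2, where the next highest WT mouse had 19.7 CPM. Lgi4 in Mbd5+/GT cerebellum was 60.2 CPM in M755 of litter 3, where the next lowest had 91.2 CPM, and this library held 3.11% of the median level of cerebellum markers. Kirrel2 in Mbd5+/GT striatum was 18.7 CPM in M764 of litter 2, where the next highest had 12.7 CPM.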

How the results depend on the processing

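The counts of members that differ between regions were the same under every alternative run (mouse as replicate block, DESeq2, RLE size factors, no filter, WT mice only), except that without the libraries low in region markers, an alternative chosen after seeing the data, 2 members in place of 1 differed between striatum and cortex. No member passed the litter test under any alternative. The 1 member with a mouse effect became 0 with no filter, without the cerebellum, cortex or striatum libraries and without litter 2 or litter 3, and 2 with DESeq2. Leaving out each mouse in turn, also added after seeing the data, gave 0 to 2 members. Over all genes the mouse effect called 393 genes, 1649 with DESeq2, 290 without the low libraries and 88 to 169 without 1 region or 1 litter. The chromosome 7 neighbours at an unadjusted p under 0.05 moved with the model. The percentages in brackets are the shares of all genes in the same fit. In cerebellum there were 4 of 94 (2.75%). There were 0 without surrogate variables (0.463%) and 0 with terms for litter and sex in their place (0.529%). Without litter 3 there were 0 (2.5%), and without the mice with repeated striatum libraries 2 (3.54%). In cortex there were 11 of 100 (8.47%), and 3 (3.43%), 4 (4.11%) and 7 (11.3%) under the first 3 of these. With no filter there were 19 of 172 (7.38%). In striatum there were 6 of 98 (7.44%), 3 without surrogate variables (5.44%) and 13 of 172 with no filter (7.09%). With at least 10 counts in every library there were 2 of 75 (4.34%). There were 17 without litter 2 (17.2%), 18 without litter 3 (17.0%) and 3 without the mice with repeated striatum libraries (5.46%). The cause of these changes was not tested. The members' log2 fold changes kept their sign under every alternative except Lgi4 in striatum, from 0.05 to -0.02 without litter 3. The largest moves were those of Pop4 in cortex, from 0.34 to 0.13 without litter 3, and Fxyd5 in striatum, from 0.29 to 0.14 with litter and sex and 0.43 without litter 3. At 56 to 530 counts per library Kirrel2 has the least depth of the 4.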
